A study of Mus musculus with 6 samples.

Results

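The genes described here mark blood vessel endothelium and its subtypes: pan-endothelial adhesion molecules, receptors and transcription factors, and genes of tip cells, capillaries, arteries and veins. They were chosen by name, 40 in all, with earlier results of these data known. Of the 40, 39 had a row among the 23930 genes of the table. Gja5 was not analysed here. Transcripts were measured in cells sorted for CD31 from subcutaneous flank tumours of C57/Bl6 mice, 2 weeks after injection of cells of the mouse lung cancer line LLC (Lewis lung carcinoma). In 3 libraries (replicates 4, 5 and 6) the injected LLC cells overexpressed BMP9, a circulating BMP ligand, and in 3 libraries (replicates 1, 2 and 3) they were control LLC cells. The labels name no alteration of the host mice. How overexpression was achieved, whether the lines were clones, the age of the mice and whether each library came from its own animal are not given in the labels, and the p-values below reflect the spread of these libraries only, which may be technical. By its title, the series is about BMP9 and tumour vessel normalization.

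Endothelial cells line vessels and are held together by junction proteins such as VE-cadherin (Cdh5), claudin 5 (Cldn5) and CD31 (Pecam1). Transcription factors of the ETS and SOXF families maintain this identity, and arterial, venous, capillary and sprouting tip cells add their own receptors, channels and ligands. In tumours, vessels are often leaky and rich in sprouts. BMP9 acts on endothelium through the receptor ALK1 and is known as a factor of vessel quiescence. CD31 is not restricted to endothelium, since platelets and many leukocytes also carry it, and the protocol in the labels names no gate other than CD31.

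Values are RPM, a gene's reads relative to all reads of its library, from a panel that amplifies 1 short segment per gene. Amplicons differ in yield, so a level is compared below between libraries and not between genes. Depth was 1974510, 4409655 and 28380957 reads in BMP9 replicates 4, 5 and 6, against 4583428, 1321762 and 1999786 reads in control replicates 1, 2 and 3. A level of 3 reads was therefore 1.52, 0.68 and 0.106 RPM in the BMP9 libraries and 0.655, 2.27 and 1.5 RPM in the control libraries. These levels cover counting error only.

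Most of the endothelial genes had few reads in both groups, while Pecam1, which encodes the sort marker, had at least 247 RPM in every library. More than 3 reads were found in all 6 libraries for 11 of the 39 genes, in 1 to 5 libraries for 25, and in none for 3. The 11 were Pecam1, Cdh5, Icam2, Cd34, Vwf, Plvap, Cd300lg, Rgcc, Aqp1, Efnb2 and Ramp3. Over the whole table, 39.3% of genes were above 3 reads in all 6 libraries, against 28.2% of these endothelial genes. Few reads can also come from a weak amplicon. Of the complement genes that macrophages express together, C1qb had 232 to 1907 RPM over the 6 libraries and C1qa at most 0.68 RPM. The part of amplicon yield in the low endothelial values was not tested.

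By library, BMP9 replicate 4 had 16 genes above 3 reads, which were the 11 with Cldn5, Tal1, Gpihbp1, Bmx and Unc5b. BMP9 replicate 5 also had 16, the 11 with Emcn, Tal1, Car4, Bmx and Unc5b. BMP9 replicate 6, by far the deepest library, had 35 and lacked only Mmrn2, Sox17, Gja4 and Sema3g. Control replicate 1 had 21, the 11 with Esam, Emcn, Ecscr, Robo4, Ptprb, Egfl7, Tal1, Apln, Esm1 and Unc5b. Control replicate 2 had 20, the 11 with Esam, Robo4, Ptprb, Tie1, Egfl7, Sox18, Aplnr, Gpihbp1 and Ramp2. Control replicate 3 had 22, the 11 with Cldn5, Emcn, Ptprb, Egfl7, Mmrn2, Aplnr, Gpihbp1, Bmx, Unc5b, Nos3 and Ramp2. In BMP9 replicates 4, 5 and 6 these counts were 41%, 41% and 89.7% of the 39 genes. All genes there stood at 43.7%, 47.2% and 56.7%. In control replicates 1, 2 and 3 they were 53.8%, 51.3% and 56.4%, against 48.6%, 42% and 44.3% of all genes. Since a deep library passes 3 reads at a lower level, the genes were also counted above 1 common level, the 2.27 RPM of 3 reads in the shallowest library. The counts were then 14, 12 and 13 in BMP9 replicates 4, 5 and 6 and 10, 20 and 16 in control replicates 1, 2 and 3, and the groups overlapped. At that level the 39 genes stood at 25.6% to 51.3% over the 6 libraries, against 41.4% to 43.4% of all genes.

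**Figure D1:**
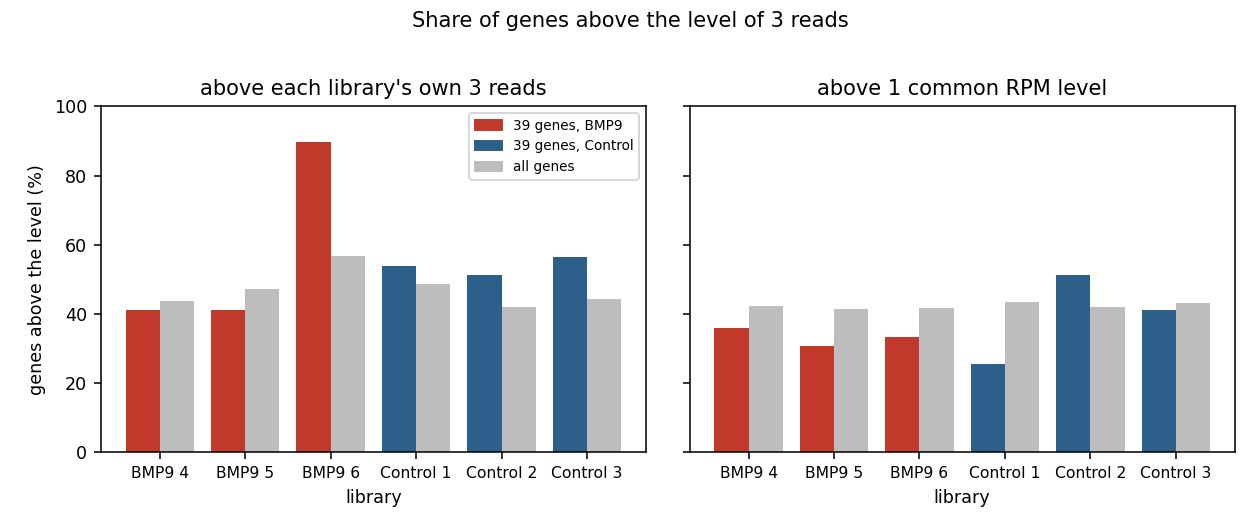
Share of the 39 endothelial genes (coloured bars) and of all 23930 genes (grey bars) above 3 reads in each library, in percent, with each library's own level on the left and 1 common level of 2.27 RPM on the right. With its own level BMP9 replicate 6 stood at 89.7%, above the 56.7% of all genes there. With the common level it stood at 33.3%, below the 41.8% of all genes.

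**Figure D2:**
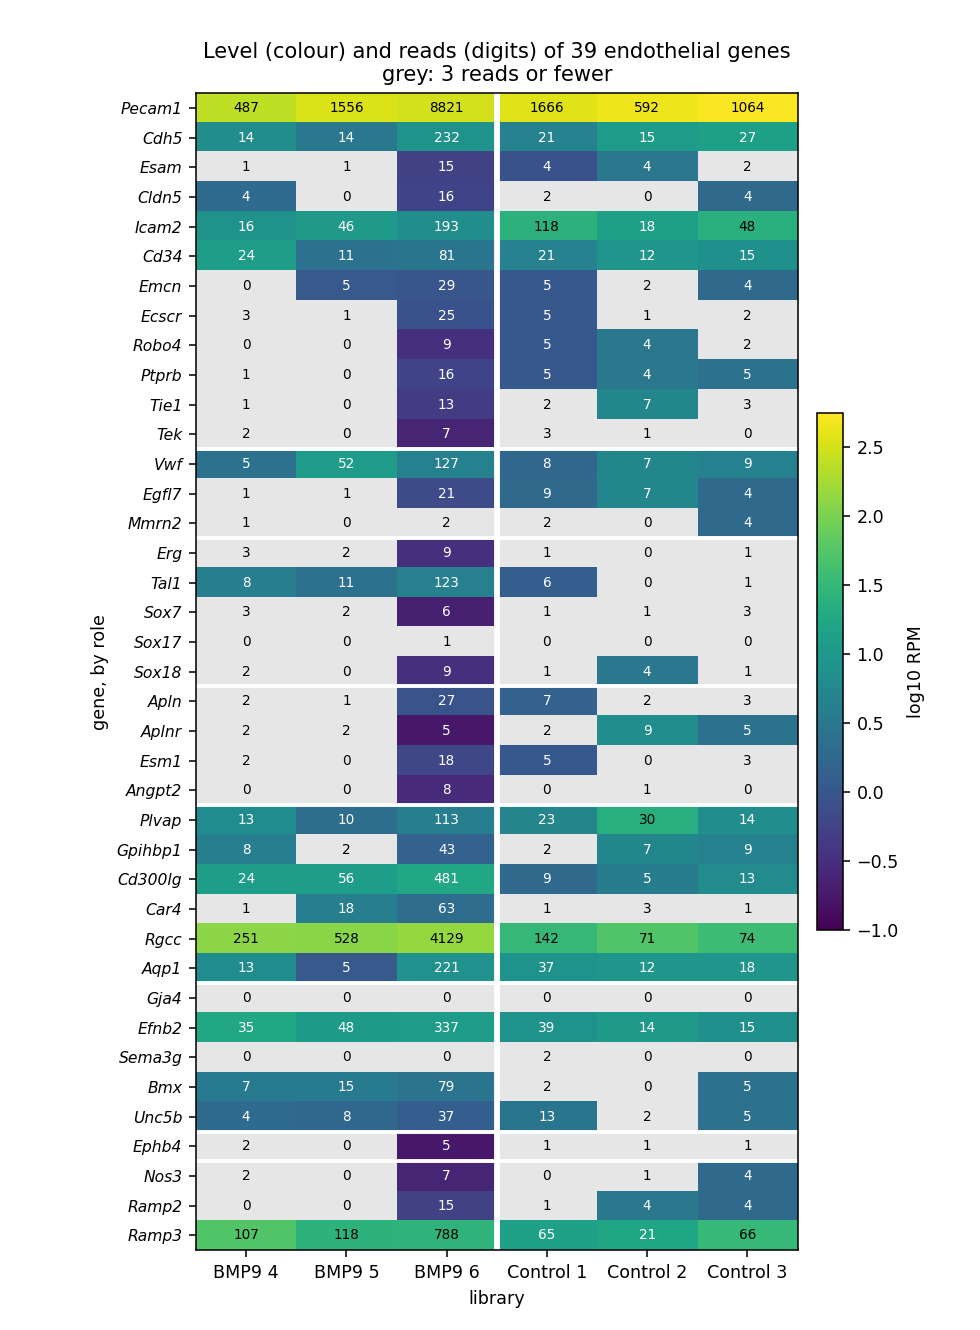
Level of each of the 39 endothelial genes in each library as log10 RPM (colour), with the recovered reads as digits and cells of 3 reads or fewer in grey. Genes are grouped by role, separated by white lines, from junction and surface genes at the top to vasoactive genes at the bottom. Pecam1, Rgcc and Ramp3 are filled in every library, whereas Gja4 has 0 reads throughout.

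Levels were compared by limma-trend on log2(RPM + 1) for genes that reached 5 RPM in 3 or more libraries, with p-values adjusted (Benjamini-Hochberg) over all 9460 genes that passed. Fold changes are BMP9 overexpression minus control on that scale, which understates changes of low genes. Of the 39 endothelial genes 10 passed the filter and 29 did not, so 25.6% could be tested, against 39.5% of the table. Of the 10, 2 rose (Rgcc and Cd300lg), 1 fell (Icam2) and 7 did not pass an adjusted p of 0.05. Over all tested genes 12.7% were called higher, 22.5% lower and 35.2% in either direction, and 3 of 10 is close to that background. Since the genes were chosen with earlier results of these data known, that closeness is a description only. As deposited the log2 fold changes of the 9460 genes had a median of -0.24, which TMM scaling moved to 0.00, so each value below stands against that shift. With TMM 54.1% of all calls were higher, against 36% as deposited, and the endothelial genes still gave 2 higher and 1 lower. Of the 10 tested genes, 3 had BMP9 libraries wholly above the controls (Rgcc, Cd300lg and Efnb2) and 3 wholly below (Pecam1, Icam2 and Aqp1), with 1 below under TMM (Icam2). Among all tested genes 16.8% were wholly higher, 31.2% wholly lower and 48.1% either, all as deposited. The same shares under TMM were not computed, so the count under TMM has no background here.

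Among junction and surface genes, Pecam1 (chromosome 11, 106654217 to 106750628, mm10) had 247, 353 and 311 RPM in BMP9 replicates 4, 5 and 6, against 363, 448 and 532 RPM in control replicates 1, 2 and 3. The groups did not overlap as deposited, but they did with TMM. The log2 fold change of -0.56 (SE 0.27, 95% interval -1.13 to 0.01) had a limma adjusted p of 0.12 and was not called. Since Pecam1 encodes the sort marker, its level also depends on the gate. In bulk samples such as these, fewer cells of a type and less RNA per cell cannot be told apart.

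Icam2 (chromosome 11, 106377656 to 106388075), an intercellular adhesion molecule of endothelium that leukocytes and platelets also carry, had 8.10, 10.4 and 6.80 RPM in BMP9 replicates 4, 5 and 6, against 25.7, 13.6 and 24 RPM in control replicates 1, 2 and 3. It was lower in every BMP9 library than in any control library, with TMM as well. Icam2 fell by 1.20 on the log2 scale (SE 0.36, 95% interval -1.96 to -0.43, limma adjusted p = 0.018). The call was lost without control replicate 1 (-1.04, adjusted p = 0.0925) or 3 (-1.08, adjusted p = 0.0703), without BMP9 replicate 6 (-1.07, adjusted p = 0.078), and within the earlier run time stamp (-1.23, adjusted p = 0.075), where only BMP9 replicate 4 stands against the controls. T and NK cell markers, summed over 15 genes, were at 768 to 1414 RPM in BMP9 libraries and 6066 to 6491 RPM in control libraries, and their part in the Icam2 difference was not tested.

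VE-cadherin did not follow Icam2 past the test. Cdh5 (chromosome 8, 104101625 to 104144511) had 7.09, 3.18 and 8.17 RPM in BMP9 replicates 4, 5 and 6, against 4.58, 11.3 and 13.5 RPM in control replicates 1, 2 and 3. The groups overlapped, and the log2 fold change was -0.56 (95% interval -1.51 to 0.38, limma adjusted p = 0.34), an interval that holds both 0 and a change of -1. Cd34, a sialomucin of endothelium and of blood progenitors, had 12.2, 2.5 and 2.85 RPM in BMP9 replicates 4, 5 and 6, against 4.58, 9.08 and 7.50 RPM in control replicates 1, 2 and 3. BMP9 replicate 4 stood above all controls and replicates 5 and 6 below all of them, so the log2 fold change of -0.48 (limma adjusted p = 0.47) turned to 0.75 within the earlier run time stamp and passed the test at -1.09 without replicate 4 (adjusted p = 0.0495).

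The other junction and surface genes had few reads. Esam, an adhesion molecule of tight junctions, had 1, 1 and 15 reads in BMP9 replicates 4, 5 and 6, against 4, 4 and 2 reads in control replicates 1, 2 and 3. Cldn5 had 4, 0 and 16 reads in the BMP9 libraries and 2, 0 and 4 in the controls. Emcn, an endothelial sialomucin, had 0, 5 and 29 reads, against 5, 2 and 4 in controls. In RPM Cldn5 and Emcn overlapped between the groups, and Esam did not, with 0.227 to 0.529 RPM in BMP9 libraries and 0.873 to 3.03 RPM in controls. Tek and Tie1, the angiopoietin receptor and its partner, had 7 and 13 reads in BMP9 replicate 6, where 3 reads are worth the least, and 0 reads each in BMP9 replicate 5. Tek had 2 reads in BMP9 replicate 4 and 3, 1 and 0 reads in control replicates 1, 2 and 3. Tie1 had 1 read in BMP9 replicate 4 and 2, 7 and 3 reads in control replicates 1, 2 and 3, and reached 5.3 RPM in control replicate 2. In RPM both genes overlapped between the groups. Ecscr, an endothelial surface protein, had 0.876 ± 0.646 RPM in BMP9 libraries and 0.949 ± 0.173 RPM in controls (SD, n = 3 each).

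Robo4, a roundabout receptor of endothelium, and Ptprb, the phosphatase VE-PTP that acts on VE-cadherin and Tek, were lower in all BMP9 libraries than in any control library. Robo4 had 0, 0 and 9 reads (0, 0 and 0.317 RPM) in BMP9 replicates 4, 5 and 6, against 5, 4 and 2 reads (1.09, 3.03 and 1.0 RPM) in control replicates 1, 2 and 3. Ptprb had 1, 0 and 16 reads (0.506, 0 and 0.564 RPM), against 5, 4 and 5 reads (1.09, 3.03 and 2.5 RPM) in controls. Several of these values are within 3 reads of 0. Both lay below the filter. When every gene with reads was fitted, Robo4 passed at -1.23 (limma adjusted p = 0.0479) and Ptprb did not (-1.21, adjusted p = 0.0588).

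The promoters of Robo4 and Rgcc are shown because these 2 genes mark the opposite directions seen here, Robo4 among the scarce genes and Rgcc among the detected ones, and each has a single start site window in the RefSeq table. Each is 250 bases before to 50 bases after the annotated start on the gene's strand (GRCm38.p6, the mm10 assembly), in lower case, with the letters GGAAG or their complement CTTCC in capitals. GGAAG holds the core of sites that ETS factors such as Erg bind. Robo4 lies at chr9:37401722-37402021 (plus strand) and Rgcc at chr14:79301586-79301885 (minus strand).
Robo4: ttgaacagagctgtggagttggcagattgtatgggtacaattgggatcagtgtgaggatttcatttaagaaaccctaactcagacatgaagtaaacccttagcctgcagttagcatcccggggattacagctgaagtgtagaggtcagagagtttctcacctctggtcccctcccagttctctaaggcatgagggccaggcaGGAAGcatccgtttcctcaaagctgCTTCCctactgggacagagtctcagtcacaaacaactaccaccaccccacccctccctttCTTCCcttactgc
Rgcc: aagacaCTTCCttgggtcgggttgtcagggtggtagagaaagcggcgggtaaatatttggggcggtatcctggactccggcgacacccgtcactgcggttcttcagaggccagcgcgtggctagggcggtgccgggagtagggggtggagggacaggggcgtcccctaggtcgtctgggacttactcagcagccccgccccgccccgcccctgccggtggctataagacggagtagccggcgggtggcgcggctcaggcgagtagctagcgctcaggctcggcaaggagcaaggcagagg

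Robo4 held the GGAAG letters 3 times and Rgcc once, with a G and C content of 50.3% and 66.7%. The letters were found on either strand in 13 of the 21 endothelial genes with a window and in 71.1% of the first windows of all 27025 genes in the table, so they do not set these genes apart. GGCGCC, a palindromic GC-rich sequence that BMP SMAD proteins can bind, stood in 2 of the 21 (Efnb2 and Ephb4) and in 12% of all windows, and in neither sequence shown. The 2 motifs can share at most 1 base at an end, and a match is a description of letters, not of binding.

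Of the secreted and matrix genes, Vwf, the von Willebrand factor of endothelium and megakaryocytes, was above 3 reads in every library. It had 2.53, 11.8 and 4.48 RPM in BMP9 replicates 4, 5 and 6, against 1.75, 5.3 and 4.5 RPM in control replicates 1, 2 and 3. BMP9 replicate 5 was the highest library and the groups overlapped. Vwf did not reach 5 RPM in 3 libraries and was not tested. Egfl7, an endothelial secreted protein, had 0.506, 0.227 and 0.74 RPM in BMP9 replicates 4, 5 and 6 (1, 1 and 21 reads), against 1.96, 5.3 and 2.0 RPM in control replicates 1, 2 and 3 (9, 7 and 4 reads). Its groups did not overlap, and in the fit of every gene with reads it had a log2 fold change of -1.37 (limma adjusted p = 0.0585). Mmrn2, a matrix protein of endothelium, had at most 4 reads in any library.

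Apart from Tal1, and from Sox18 in control replicate 2, the endothelial transcription factors had at most 3 reads outside BMP9 replicate 6. Erg, the ETS factor of endothelial identity, had 3, 2 and 9 reads in BMP9 replicates 4, 5 and 6, against 1, 0 and 1 reads in control replicates 1, 2 and 3. Sox7 had 3, 2 and 6 reads in the BMP9 libraries and 1, 1 and 3 in controls, and Sox18 had 2, 0 and 9, against 1, 4 and 1. Sox17, the SOXF factor of arterial endothelium, had 1 read of 34765122 in BMP9 libraries and 0 of 7904976 in control libraries, which allows at most 0.38 RPM in controls. None of these separated the groups in RPM.

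Tal1 differed from the other factors. This basic helix-loop-helix factor of the blood and endothelial lineages, which erythroid cells, megakaryocytes and mast cells retain, had 4.05, 2.5 and 4.33 RPM in BMP9 replicates 4, 5 and 6 (8, 11 and 123 reads), against 1.31, 0 and 0.5 RPM in control replicates 1, 2 and 3 (6, 0 and 1 reads). Every BMP9 library was above every control library. Tal1 was below the filter, and in the fit of every gene with reads it passed at 1.59 (limma adjusted p = 0.0443), where 4.64% of all genes were called higher, 8.27% lower and 12.9% in all. In those libraries Gata2 and Lmo2, which act with Tal1 in blood cells, were also higher (log2 fold changes of 2.09 and 2.93), and 9 platelet and megakaryocyte markers summed to 609 to 846 RPM in BMP9 libraries and 66.6 to 123 RPM in controls. Of those 9, only 3 were above 3 reads in all 6 libraries, and Pf4 gave most of the sum, with a mean of 619 RPM in BMP9 and 49.1 RPM in control libraries. Their part in the Tal1 difference was not tested.

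Tip cell genes were scarce in both groups. Apln, the peptide apelin of sprouting cells, had 2, 1 and 27 reads in BMP9 replicates 4, 5 and 6 (1.01, 0.227 and 0.951 RPM), against 7, 2 and 3 reads in control replicates 1, 2 and 3 (1.53, 1.51 and 1.5 RPM). The groups did not overlap, on counts as low as 1 read. Its receptor Aplnr had 0.176 to 1.01 RPM in BMP9 libraries and 0.436 to 6.81 RPM in controls, with the highest value in control replicate 2 (9 reads). Esm1, the proteoglycan endocan, had 2, 0 and 18 reads, against 5, 0 and 3 in controls. Angpt2, the Tek ligand released by activated endothelium, had 0, 0 and 8 reads in BMP9 libraries and 0, 1 and 0 reads in controls. Summed over these 4 genes, BMP9 libraries had 1.92 ± 1.18 RPM and control libraries 5.88 ± 3.03 RPM (SD, n = 3 each), and the ranges of 0.681 to 3.04 RPM and 3.05 to 9.08 RPM came within 1 read of touching.

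Both tested genes that rose were capillary genes. Rgcc (chromosome 14, 79288756 to 79301645), a regulator of the cell cycle that marks capillary endothelium and is also expressed in leukocytes, had 127, 119.7 and 145 RPM in BMP9 replicates 4, 5 and 6, against 31.0, 53.7 and 37.0 RPM in control replicates 1, 2 and 3. All BMP9 libraries were over 2 times as high as the highest control. Rgcc rose by 1.70 on the log2 scale (SE 0.29, 95% interval 1.09 to 2.31, limma adjusted p = 0.00039), a 3.24-fold change. It passed under all 17 settings run, with 1.66 within the earlier run time stamp, 1.95 with TMM, and between 1.53 and 1.96 over all of them. Macrophage and monocyte markers, summed over 14 genes, were at 18908 to 24889 RPM in BMP9 libraries and 4745 to 7336 RPM in control libraries, and their part in the Rgcc difference was not tested.

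Cd300lg (chromosome 11, 102041509 to 102055620), the mucin-like receptor nepmucin of capillary and venular endothelium, had 12.2, 12.7 and 16.9 RPM in BMP9 replicates 4, 5 and 6, against 1.96, 3.78 and 6.50 RPM in control replicates 1, 2 and 3. The groups did not overlap. Cd300lg rose by 1.64 on the log2 scale (SE 0.40, 95% interval 0.79 to 2.5, limma adjusted p = 0.0055), or 1.08 with a pseudocount of 5 and 2.16 with edgeR on recovered reads. Within the earlier run time stamp the value was 1.47 and the call was lost (adjusted p = 0.1), as it was in the fit of every gene with reads (adjusted p = 0.0565). No tested junction gene passed in that direction.

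The other capillary genes went different ways, none of them past the test. Plvap, the protein of the diaphragms of fenestrae and caveolae, had 6.58, 2.27 and 3.98 RPM in BMP9 replicates 4, 5 and 6, against 5.02, 22.7 and 7.0 RPM in control replicates 1, 2 and 3. Control replicate 2 stood far above the rest. The log2 fold change of Plvap was -1.07 (95% interval -2.13 to -0.01, limma adjusted p = 0.11), -0.48 without control replicate 2, and -1.37 without BMP9 replicate 4, where it passed (adjusted p = 0.0455). Aqp1, a water channel of capillaries and red blood cells, had 6.58, 1.13 and 7.79 RPM in BMP9 replicates 4, 5 and 6, against 8.07, 9.08 and 9.0 RPM in control replicates 1, 2 and 3. The BMP9 libraries were all lower as deposited, replicate 5 most of all, but they overlapped the controls with TMM, and the log2 fold change of -0.90 did not pass (95% interval -1.92 to 0.13, limma adjusted p = 0.16). Without BMP9 replicate 5 it was -0.25.

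Gpihbp1, which carries lipoprotein lipase across capillaries, had 4.05, 0.454 and 1.52 RPM in BMP9 replicates 4, 5 and 6 and 0.436, 5.3 and 4.5 RPM in control replicates 1, 2 and 3. Car4, a membrane-anchored carbonic anhydrase of capillaries, had 0.506, 4.08 and 2.22 RPM, against 0.218, 2.27 and 0.5 RPM in controls. Both spread as widely within a group as between the groups. Over all 6 capillary genes the sum was 158 ± 18.8 RPM in BMP9 libraries and 69.3 ± 25.4 RPM in control libraries (SD, n = 3 each), of which Rgcc alone gave 131 ± 13.3 and 40.6 ± 11.8 RPM.

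**Figure D3:**
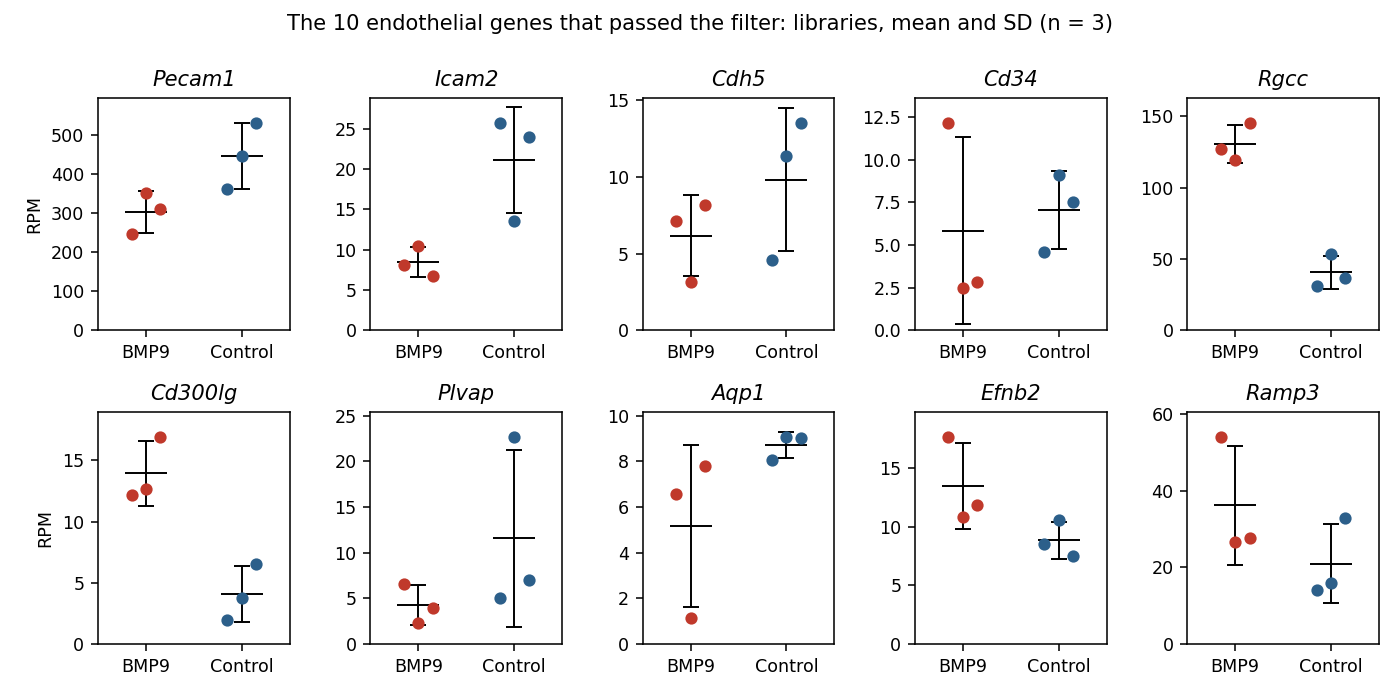
RPM of the 10 endothelial genes that passed the filter, each on its own axis from 0, with BMP9 libraries (red, left) and control libraries (blue, right) as points and their mean and SD (n = 3 each) in black. Rgcc and Cd300lg lie wholly above the controls and Icam2 wholly below, whereas the points of Cdh5, Cd34, Plvap and Ramp3 overlap.

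Arterial genes were represented mainly by Efnb2 (chromosome 8, 8617434 to 8661242), the ephrin ligand of arterial endothelium, which other cells also express. It had 17.7, 10.9 and 11.9 RPM in BMP9 replicates 4, 5 and 6, against 8.51, 10.6 and 7.50 RPM in control replicates 1, 2 and 3. The groups did not overlap, but BMP9 replicate 5 and control replicate 2 differed by less than the worth of 1 read in control replicate 2. The log2 fold change of 0.54 (95% interval -0.21 to 1.28, limma adjusted p = 0.25) did not pass, nor did it in any of the 16 settings in which Efnb2 was tested. Its venous receptor Ephb4 had 2, 0 and 5 reads in BMP9 libraries and 1, 1 and 1 reads in controls, too few to set the 2 sides of this pair against each other.

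Bmx, a Tec family kinase of arterial endothelium and of myeloid cells, had 3.55, 3.40 and 2.78 RPM in BMP9 replicates 4, 5 and 6 (7, 15 and 79 reads), against 0.436, 0 and 2.5 RPM in control replicates 1, 2 and 3 (2, 0 and 5 reads). All BMP9 libraries were higher, with control replicate 3 just below them, and in the fit of every gene with reads Bmx did not pass (1.3, limma adjusted p = 0.14). Unc5b, a netrin receptor of arteries and tip cells, had 2.03, 1.81 and 1.3 RPM in BMP9 libraries and 2.84, 1.51 and 2.5 RPM in controls, which overlapped. Gja4, the connexin 37 of arterial endothelium, had 0 reads of 42670098 over all libraries, which allows at most 0.0703 RPM, or 0.21 RPM without BMP9 replicate 6, which gave most of the reads. Sema3g, a semaphorin of arterial endothelium, had 0 reads of 34765122 in BMP9 libraries, which allows up to 0.0863 RPM (0.47 RPM without BMP9 replicate 6), and 2 reads of 7904976 in control libraries.

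Of the vasoactive genes, the endothelial nitric oxide synthase Nos3 had 2, 0 and 7 reads in BMP9 replicates 4, 5 and 6, against 0, 1 and 4 reads in control replicates 1, 2 and 3. RAMP2 and RAMP3 are the partner proteins that turn the calcitonin receptor-like receptor (Calcrl) into receptors for adrenomedullin, with Ramp2 the vascular one. Ramp2 had 0, 0 and 15 reads, against 1, 4 and 4 in controls. Ramp3 (chromosome 11, 6658521 to 6677475) had 54.2, 26.8 and 27.8 RPM in BMP9 replicates 4, 5 and 6, against 14.2, 15.9 and 33.0 RPM in control replicates 1, 2 and 3. Control replicate 3 was above BMP9 replicates 5 and 6, so the groups overlapped.

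The log2 fold change of Ramp3 was 0.78 (95% interval -0.04 to 1.60, limma adjusted p = 0.13) and did not pass as deposited. It was 0.46 without BMP9 replicate 4, the highest library (adjusted p = 0.35), and 0.56 without control replicate 1 (adjusted p = 0.377), but 1.14 without control replicate 3, where it passed (adjusted p = 0.0462). It also passed after quantile normalization (1.07, adjusted p = 0.0442) and with DESeq2 (1.01, adjusted p = 0.0437). BMP9 replicate 4 alone against the 3 controls, which is all that the earlier run time stamp and the stamp as a covariate compare, gave 1.42 (adjusted p = 0.0495 and 0.0282), with the lone library assumed to vary like the others. The receptor Calcrl itself had 21.6 RPM in BMP9 and 17.5 RPM in control libraries on average and a log2 fold change of 0.27 (limma adjusted p = 0.56).

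**Figure D4:**
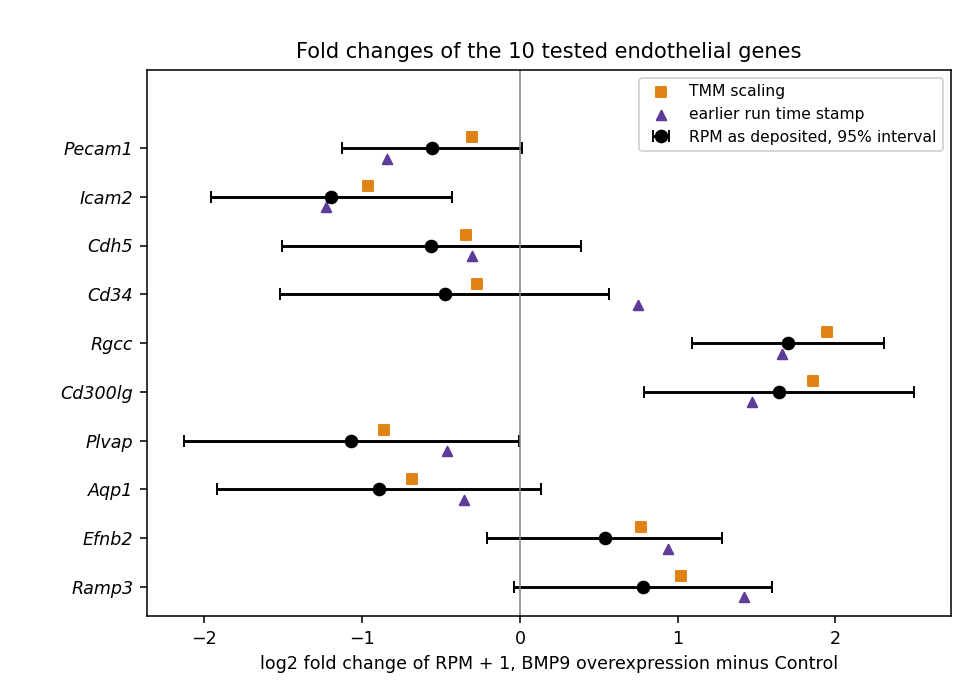
Log2 fold change of RPM + 1, BMP9 overexpression minus control, of the 10 tested endothelial genes (black, with the 95% interval of the limma fit), beside TMM scaling (orange squares) and the earlier run time stamp alone (purple triangles, BMP9 replicate 4 against 3 controls). Rgcc (1.70), Cd300lg (1.64) and Icam2 (-1.20) have intervals clear of 0. That of Plvap (-1.07) ends at -0.01, just short of 0, though Plvap did not pass the adjusted p. Cd34 lies on opposite sides of 0 between settings.

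Of the 29 endothelial genes below the filter, 5 had BMP9 libraries wholly below the controls (Esam, Robo4, Ptprb, Egfl7 and Apln), 2 wholly above (Tal1 and Bmx) and 22 overlapped, with the same counts under TMM. Under TMM, 6.69% of all such genes were wholly higher and 5.43% wholly lower. As deposited, over all 8814 genes with reads below the filter, 6.63% were wholly lower and 5.56% wholly higher, 12.2% in all. In the fit of every gene with reads, 27 of the 38 endothelial genes had a negative log2 fold change (71.1%), against 51.8% of all 18274 genes, with a median of -0.31 for the endothelial genes and -0.04 for all. The 10 endothelial genes that passed the filter had a median of -0.52, against -0.24 for all tested genes. Within the earlier run time stamp, BMP9 replicate 4 alone against the controls, these medians were 0.22 and -0.20, so the direction depended on the libraries used. The endothelial genes share their libraries and their low depth, so they are not independent, and no test was made over them. They were also chosen with earlier results of these data known, so their shares and medians cannot be read against those of all genes.

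The summed level of the genes depended on what was counted. All 39 summed to 557 ± 21.9 RPM in BMP9 libraries and 619.9 ± 119 RPM in control libraries (SD, n = 3 each). The difference of -63.3 RPM turned to 38.2 RPM with TMM and was -13.5 RPM without control replicate 3, so its direction is not set. Without Pecam1 the sums were 285, 217 and 258 RPM in BMP9 replicates 4, 5 and 6, against 124, 204 and 188 RPM in control replicates 1, 2 and 3. Without Pecam1, Rgcc and Ramp3, the 36 others summed to 103, 70.5 and 84.3 RPM, against 79.2, 135 and 118 RPM in controls, and the groups overlapped. The higher sum without Pecam1 was thus carried by Rgcc and Ramp3, while the 11 junction and surface genes without Pecam1 summed to 24.5 ± 8.07 RPM in BMP9 libraries and 49.7 ± 7.32 RPM in controls. Of these 2 sums, Icam2 alone gave 8.4 and 21.1 RPM. Icam2, Esam, Robo4 and Ptprb lay wholly below the controls, whereas Cdh5, Cd34, Cldn5, Emcn, Ecscr, Tie1 and Tek overlapped.

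**Figure D5:**
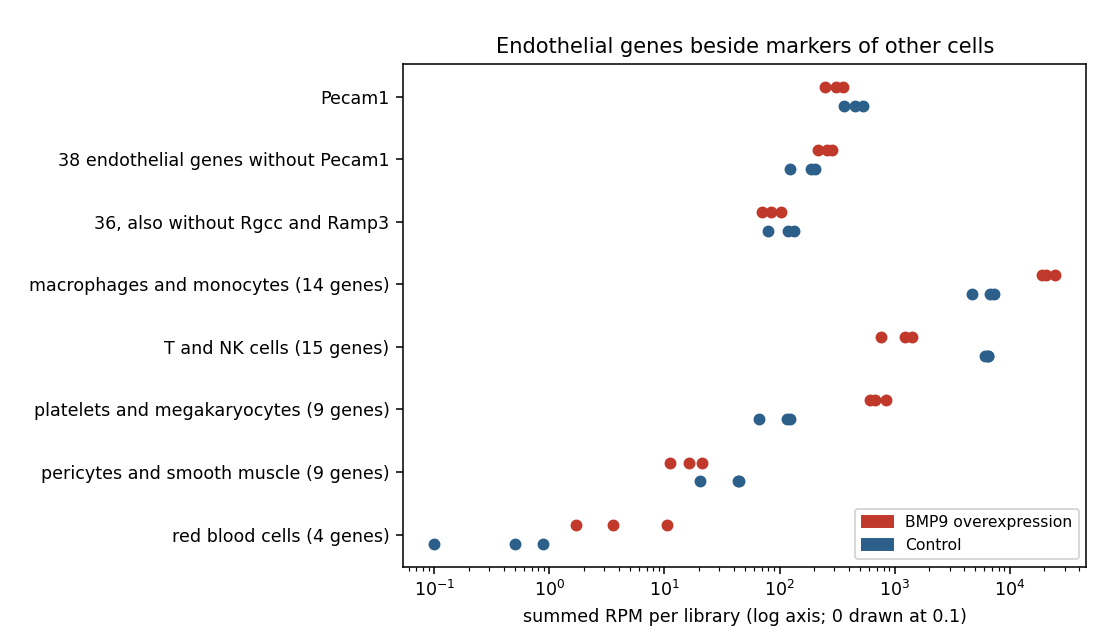
Summed RPM per library on a log axis, with BMP9 libraries (red) above control libraries (blue) in each row, for Pecam1, the other endothelial genes and marker lists of other cell types. Without Pecam1, Rgcc and Ramp3 the endothelial sums overlap at 70.5 to 103 RPM in BMP9 and 79.2 to 135 RPM in control libraries. The pericyte list overlaps as well. Pecam1, the endothelial sum without Pecam1 only, and the macrophage, T and NK cell, platelet and red blood cell lists separate the groups.

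A further list of 31 measured genes with endothelial expression, many of them shared with blood cells, was read beside these. Of the 16 tested, 9 rose, 3 fell and 4 did not pass, against 12.7% higher and 22.5% lower of all tested genes, and 15 were below the filter. Whether the list differs from the 3 calls of 10 above was not tested. The list was chosen with earlier results of these data known, so its share of calls cannot be read against the background. The genes with the highest mean were Fli1, Slc2a1, Lmo2 and S1pr1. Fli1, an ETS factor of endothelium and blood cells, had 205, 101 and 149 RPM in BMP9 replicates 4, 5 and 6, against 348, 228 and 273 RPM in control replicates 1, 2 and 3, and fell by 0.93 on the log2 scale (limma adjusted p = 0.025; 0.0864 with TMM). Lmo2, a partner of Tal1, had 292, 226 and 284 RPM, against 33.6, 31.0 and 37.5 RPM in controls, and rose by 2.93 (limma adjusted p = 3.6e-06). In neither gene did the groups overlap. The glucose transporter gene Slc2a1 had 386, 118 and 222 RPM in BMP9 replicates 4, 5 and 6, against 59.3, 73.4 and 72.5 RPM in control replicates 1, 2 and 3, and rose by 1.65 (limma adjusted p = 0.0024). S1pr1, a receptor of endothelium and lymphocytes, had 114.8 ± 8.64 RPM in BMP9 libraries and 172 ± 73.5 RPM in controls (SD, n = 3 each) and did not pass (-0.49, limma adjusted p = 0.23).

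The other 9 called genes of the list went both ways. She, an adaptor protein of endothelium, fell by 1.53 on the log2 scale (limma adjusted p = 0.011), and Kdr, the VEGF receptor of endothelium, fell by 1.32 (adjusted p = 0.025). With TMM She stayed past the test (-1.31, adjusted p = 0.0257), whereas Kdr did not (-1.11, adjusted p = 0.0646). Kdr had 3.04, 4.76 and 2.96 RPM in BMP9 replicates 4, 5 and 6, against 6.76, 19.7 and 8.0 RPM in control replicates 1, 2 and 3. It reached 5 RPM in the controls only and so passed the filter through the group where it is high. The call of Kdr is therefore not independent of the filter. The other VEGF receptor, Flt1, which monocytes also express, went the opposite way, with 12.7, 31.5 and 17.3 RPM in BMP9 libraries, against 3.05, 3.03 and 10.001 RPM in controls, and rose by 1.83 (limma adjusted p = 0.0058). Neither receptor overlapped between the groups.

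Acvrl1, which encodes the BMP9 receptor ALK1, had 45.1, 20.9 and 24.1 RPM in BMP9 replicates 4, 5 and 6, against 8.95, 3.03 and 15 RPM in control replicates 1, 2 and 3. Its groups did not overlap and it rose by 1.77 (SE 0.47, limma adjusted p = 0.0086). Within the earlier run time stamp, BMP9 replicate 4 alone against the controls, Acvrl1 was called at 2.42 (adjusted p = 0.0191) and Flt1 was not (1.28, adjusted p = 0.168). Thrombomodulin (Thbd) rose by 2.51 and the protein C receptor (Procr) by 1.88, both anticoagulant proteins of endothelium that blood cells can also express, and Cd93, Gata2 and Vcam1 rose by 2.76, 2.09 and 1.46 (limma adjusted p between 1.9e-05 and 0.031 for these 5). The part of blood cells in these differences was not tested. Procr had 17.2, 6.35 and 6.025 RPM in BMP9 replicates 4, 5 and 6, against 0.436, 2.27 and 3.0 RPM in control replicates 1, 2 and 3. It passed the filter through the BMP9 libraries alone, so its call is not independent of the filter. Of the genes below the filter, Clec14a, a C-type lectin of endothelium, was above 3 reads in no library.

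For vessel-associated cells, the 9 pericyte and smooth muscle markers summed to 11.1 to 21.3 RPM in BMP9 libraries and 20.4 to 44.0 RPM in control libraries, and 1 of them was above 3 reads in all 6 libraries. The 4 red blood cell markers summed to 1.69 to 10.4 RPM in BMP9 libraries and 0 to 0.873 RPM in controls, with BMP9 replicate 5 the highest. The 8 epithelial and carcinoma markers summed to 185 to 284 RPM, against 169 to 193 RPM in controls, mostly Cdh1, which averaged 220.3 RPM in BMP9 libraries and 171 RPM in controls.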

How the data were processed

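The table was deposited in RPM, which the authors computed from the read total per library, as its header and values show. Libraries were made with the Ion AmpliSeq mouse transcriptome kit from CD31-sorted cells, per the labels' protocols, and per the submitters' processing notes the build was mm10. Which aligner and counter were used is not given in the sources used here. Whole reads were recovered for 100% of nonzero values within 0.05 reads. Depth sets what can be seen: 3 reads are worth between 0.106 and 2.27 RPM, and reads are PCR copies without molecular identifiers.

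limma 3.58.1 (R 4.3.3) was run with trend on log2(RPM + 1) for genes that reached 5 RPM in 3 or more libraries, with no covariate, threshold 0.05, and was tested on simulated reads. Alternatives were pseudocounts, filters, TMM, quantile normalization, run time stamp, each library left out, edgeR 4.0.16 (3114 genes called) and DESeq2 1.42.0 (3317) on recovered reads. The earlier stamp holds the controls and BMP9 replicate 4, the later BMP9 replicates 5 and 6.

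Members and lists were chosen with earlier results of these data known. All 40 members were to be named, with every library's RPM where a gene passed the filter or had more than 3 reads in all libraries. Of the other endothelial genes, the 4 with the highest mean were named by rule. All other called genes of that list, with Calcrl, Clec14a, C1qa, C1qb, Pf4, Il1r2 and Cdh1, were named after their values were seen. Of the B cell, neutrophil, dendritic cell, progenitor, fibroblast and lymphatic lists, sums stand in the closing section. Coordinates are whole genes of GENCODE M21 (mm10). Promoters are RefSeq's (GRCm38.p6), with 21 of 39 genes matched, first window listed.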

Additional observations from a re-analysis of the deposited data

How the results depend on the processing

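Rgcc rose under all 17 settings and Cd300lg under 14 of 16, and both kept their direction in each. Icam2 was called under 9 of 16, always lower; the 1 lower call with no filter was Robo4. Cdh5, Pecam1, Efnb2 and Aqp1 were called under none. Cd34 reversed to 0.75 (adjusted p = 0.281) with the stamp of the run as covariate and to 0.75 (adjusted p = 0.321) within the earlier stamp, both of which compare only BMP9 replicate 4, the highest library, with the controls. Endothelial genes called lower numbered 0 after quantile normalization, with the stamp as a covariate, within the earlier stamp and with a filter on a mean of 20 RPM, under which 3 genes were tested and 1 was higher. Leaving out single libraries gave 2 to 3 higher and 0 to 3 lower, with 3 lower without BMP9 replicate 4 and 0 without BMP9 replicate 6 or control replicate 1 or 3. The count of all lower genes was 1383 with TMM and 1367 to 2312 when a library was left out, the fewest without control replicate 1. Of the further endothelial list, no filter gave 5 higher and 0 lower, the filter on 20 RPM gave 5 and 1, TMM gave 1 lower, and the stamp as a covariate and the earlier stamp gave 0 lower. Leaving out libraries gave 0 to 3 lower, with 0 without BMP9 replicate 6 and 1 without control replicate 1. Above 10 reads, 10 endothelial genes remained in BMP9 replicate 4, and 10, 9 and 10 in control replicates 1, 2 and 3. The common level left 13 in BMP9 replicate 6 and 10 in control replicate 1. The difference of the summed RPM of all 39 genes, BMP9 overexpression minus control, was -63.3 as deposited, 38.2 with TMM, and -129 to -13.5 with libraries left out. Without Pecam1 it was 81.0, and 57.2 to 99. No paired analysis was possible because the groups share no replicate number. Of the 29 genes below the filter, many had 3 reads or fewer in several libraries, which limits their order.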

Other observations

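Among markers of lymphatic endothelium, the lineage-defining ones were at or near 0 while others were high in BMP9 libraries. Prox1, the transcription factor of lymphatic identity, had 0, 0.227 and 0.141 RPM in BMP9 replicates 4, 5 and 6, against 0.218, 0 and 0 RPM in control replicates 1, 2 and 3. Flt4, the lymphatic VEGF receptor, had 0, 0 and 0.247 RPM, against 0.218, 0.757 and 1.0 RPM in controls. Lyve1 and Pdpn, which macrophages can also express, rose by 5.33 and 3.92 on the log2 scale (limma adjusted p = 2.2e-06 and 1.4e-05), with 68.9, 67.6 and 75.4 RPM of Lyve1 in BMP9 libraries, against 0.873, 0 and 2.0 RPM in control libraries. Lyve1 passed the filter of 5 RPM through the BMP9 libraries alone, so its call is not independent of the filter. Of the 6 measured lymphatic markers only Pdpn was above 3 reads in all 6 libraries.

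Fibroblast markers (8 genes) summed to 29.7 to 44.1 RPM in BMP9 libraries and 5.3 to 41.9 RPM in control libraries. Neutrophil markers (10 genes) summed to 399.9 to 475 RPM in BMP9 libraries and 114 to 146 RPM in controls. Il1r2 gave most of that sum, with a mean of 252 RPM in BMP9 and 94.6 RPM in control libraries. Only 4 of the 10 were above 3 reads in all 6 libraries. Dendritic cell markers (8 genes) were at 453 to 828 RPM, against 489 to 656 RPM in controls, and B cell markers (5 genes) at 66.6 to 112 RPM, against 49.2 to 80.01 RPM. Blood progenitor genes (6 genes) summed to 87.4 to 109.99 RPM in BMP9 libraries and 144 to 205 RPM in controls. The part of these cells in the endothelial gene values was not tested.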
